A study of Mus musculus with 4 samples.

Results

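The chromatin around Malat1 was described from 692 accessible regions, or peaks, of the 80881 from the authors' deposited table. They are the peaks on chromosome 19 with a start under position 10800000 (mm10), and so lie within 5 Mb of position 5802672, the Malat1 start site. The choice used position alone and no measured value. The first peak starts at 3208326, so the interval reaches further on the upstream side of Malat1, which is read from the minus strand, than on its downstream side. ATAC-seq, which uses a transposase to cut and tag open DNA, was run on KPC cells, a line from a KP mouse lung adenocarcinoma that carries lentiviral SpCas9 with puromycin selection. Cells with a Malat1-targeting guide in the lenti-SAM-Hygro vector (mA2 dRNA) were set against cells with a guide to luciferase (Con dRNA), with 2 biological replicate cell samples for each of the 2 guides. Both groups carry Cas9 and the vector, and each group has a single guide in a single cell line.

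Malat1 is an abundant long noncoding RNA of nuclear speckles, widely studied in lung cancer metastasis. Its neighbour Neat1 is the noncoding RNA on which paraspeckles are built. CRISPR activation of the SAM kind brings transcriptional activators to a chosen promoter through the guide, so the DNA around the target is where a local change in accessibility would be looked for. The surrounding stretch of chromosome 19 is rich in genes, among them Rela, the p65 subunit of NF-kB, and Fosl1, a subunit of AP-1.

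Values are mean normalized reads of a group, as the authors deposited them, and differences are the log2 mean with mA2 dRNA minus the log2 mean with Con dRNA. The libraries of a group were not read apart, because their columns are not tied to a sample by name, so no value per sample, depth per library or spread between libraries is given. Each difference has instead an implied standard error (SE), computed here from the difference and the p-value from the authors' deposited table read as a 2-sided normal p. It is not a measured spread between libraries. It also joins the difference of group means to a p-value that was deposited with a different log2 fold. A peak is called, and is said to have risen or fallen, where its adjusted p from the authors' deposited table was under 0.05. Of all 80881 peaks, 2.23% were called higher and 0.507% lower with mA2 dRNA, or 2.73% in either direction, and the sources used here do not name the test. At an unadjusted p under 0.05 these shares were 8.86%, 2.85% and 11.7%. The median difference over all peaks was 0.092. A more open site in each cell and more cells with the site open cannot be told apart in such bulk samples.

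Promoter sequences from RefSeq (GRCm38.p6) show what lies under promoter peaks of Malat1 (the target of the guide), Ahnak, Zfta and Rela. Ahnak and Zfta are the protein-coding genes with a called promoter peak. Capitals mark the bases inside the deposited peak and lower case the bases outside it, each sequence reading 5′ to 3′ along the gene. The Malat1 stretch, chr19:5802623-5802922 on the minus strand, holds 250 bases before the start and the first 50 transcribed. The others stop at the start and lie on the plus strand, Ahnak at chr19:8989034-8989283, Zfta (gene ID 108899, named 2700081O15Rik in the RefSeq table) at chr19:7417375-7417624 and Rela at chr19:5637291-5637540.
Malat1: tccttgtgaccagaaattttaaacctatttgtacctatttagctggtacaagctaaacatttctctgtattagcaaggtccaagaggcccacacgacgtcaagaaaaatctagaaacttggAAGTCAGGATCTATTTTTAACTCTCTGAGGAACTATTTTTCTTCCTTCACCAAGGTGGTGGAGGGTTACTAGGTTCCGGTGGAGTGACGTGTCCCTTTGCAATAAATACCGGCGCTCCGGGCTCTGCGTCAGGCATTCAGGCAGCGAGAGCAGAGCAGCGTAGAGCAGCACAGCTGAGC
Ahnak: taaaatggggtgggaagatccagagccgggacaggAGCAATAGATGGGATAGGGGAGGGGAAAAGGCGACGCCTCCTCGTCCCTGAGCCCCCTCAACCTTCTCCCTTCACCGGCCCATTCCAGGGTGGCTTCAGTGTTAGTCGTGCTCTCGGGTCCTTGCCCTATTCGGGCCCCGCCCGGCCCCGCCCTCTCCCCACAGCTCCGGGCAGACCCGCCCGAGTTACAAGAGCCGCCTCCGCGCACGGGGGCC
Zfta: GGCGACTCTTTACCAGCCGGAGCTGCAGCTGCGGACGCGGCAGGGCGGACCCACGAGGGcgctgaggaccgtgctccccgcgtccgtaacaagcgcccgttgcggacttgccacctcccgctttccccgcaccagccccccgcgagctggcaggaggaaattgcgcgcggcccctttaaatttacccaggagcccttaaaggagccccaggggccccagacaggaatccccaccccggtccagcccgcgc
Rela: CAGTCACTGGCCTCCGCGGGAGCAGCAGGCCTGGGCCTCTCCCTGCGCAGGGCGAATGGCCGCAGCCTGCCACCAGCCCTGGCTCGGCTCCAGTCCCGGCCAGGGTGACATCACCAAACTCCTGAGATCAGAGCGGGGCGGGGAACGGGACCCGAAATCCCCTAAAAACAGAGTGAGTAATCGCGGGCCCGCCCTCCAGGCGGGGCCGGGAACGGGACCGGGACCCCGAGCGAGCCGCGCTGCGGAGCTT

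The Malat1 stretch was 47.0% G and C, against 66.4% for Ahnak, 69.6% for Zfta and 70.4% for Rela. Over the 300 bases from 250 before to 50 after the start, on both strands, the GC box (GGGCGG) occurred 4 times at Ahnak, 2 times at Zfta, 2 times at Rela and 0 times at Malat1. No match to the CCAAT box (CCAAT), the TATA box (TATAAA), the AP-1 site (TGANTCA) or the cyclic AMP response element (TGACGTCA) was found in these 4 windows, so no motif overlapped another. The GC box was present in 56.5% of 230 promoters of the interval and in 35.9% of all 27025 promoters of the table. The AP-1 site was present in 4.78% and 7.93%, and the TATA box in 6.96% and 14.2%. The CCAAT box was present in 41.7% and 37.9%, and the cyclic AMP response element in 1.30% and 1.88%. A match is a string of letters and not a bound site. The median share of G and C was 58.8% in promoters of the interval and 52.7% in all promoters.

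At the guide's target most peaks had slightly more reads with the Malat1 guide, and a single peak rose. Within 50 kb of the start site lay 33 peaks, most of them assigned to Malat1 or Neat1. In 29 (87.9%) the mean was higher with mA2 dRNA, beside 78.3% of the 692 members and 60.8% of all peaks. Their median difference was 0.16, the same as for the members. It was 0.23 for the other peaks of chromosome 19 and 0.092 for all peaks. The single call is 3.03% of the 33, beside 2.23% called higher among all peaks. The called peak, chr19:5812077-5812477, has its centre 9.61 kb upstream of Malat1 in intergenic sequence and held 991 reads with mA2 dRNA and 684 with Con dRNA, a difference of 0.54 with an implied SE of 0.16 and an adjusted p of 0.0279 from the authors' deposited table. Its call ended under 3 other centrings of the differences, with an adjusted p between 0.0753 and 0.303. The other 12 Malat1 peaks had differences between -0.059 and 0.30, and the smallest adjusted p among them from the authors' deposited table was 0.576. They include the peak over the start site shown above, which held 322 reads with mA2 dRNA and 290 with Con dRNA, and the second promoter peak, chr19:5803483-5803883, which lies wholly upstream of the printed bases and was the only Malat1 peak with the lower mean with mA2 dRNA (difference -0.059, implied SE 0.14).

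All 14 peaks assigned to Neat1 had the higher mean with mA2 dRNA, as did 78.3% of the members. Their differences ran from 0.084 to 0.55. Of the 14, 0 were called and 1 had an unadjusted p under 0.05 from the authors' deposited table. Among all peaks 2.73% were called and 11.7% had such a p, so 14 peaks are too few for these counts to set Neat1 apart. The strongest Neat1 peaks lie at and beyond the start site of the gene. The peak chr19:5846570-5846970 held 1166 reads with mA2 dRNA and 1003 with Con dRNA, with an unadjusted p of 0.0340 and an adjusted p of 0.347 from the authors' deposited table. The first peak past Neat1, at Frmd8, held 427 reads with mA2 dRNA and 358 with Con dRNA and was not called, nor were the 4 peaks of Ltbp3, a binding protein of latent TGF-beta, on the other side of Malat1.

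**Figure D1:**
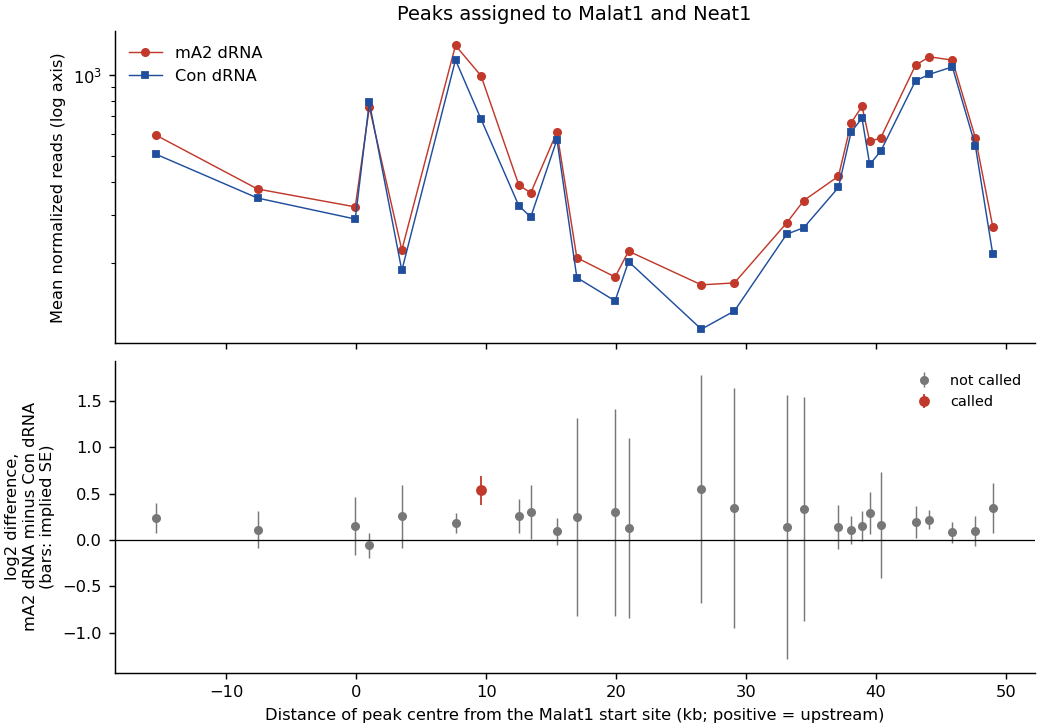
Mean normalized reads of the 13 Malat1 and 14 Neat1 peaks (upper panel, log axis; circles mA2 dRNA, squares Con dRNA) and their log2 difference with the implied standard error as bars (lower panel), by distance in kb from the Malat1 start site. The circles lie above the squares in all of these but 1 Malat1 peak, and the called peak at 9.61 kb has a short bar where 7 neighbouring peaks between 17.0 and 34.4 kb have long ones.

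A run of 7 neighbouring peaks between Malat1 and the 3′ part of Neat1, singled out after its values were seen, had differences whose p-values were large for their size. These peaks lie from chr19:5819451 to 5837314, with 3 assigned to Malat1 and 4 to the exon of Neat1, and no other peak lies among them. The peak chr19:5829034-5829434 in the Neat1 exon held 165 reads with mA2 dRNA and 113 with Con dRNA, a difference of 0.55, close to that of the called peak, yet its p from the authors' deposited table was 0.656 and its implied SE was 1.23. Over the 7 peaks the implied SE ran from 0.97 to 1.42, whereas the median of all peaks with like reads (within 0.25 on the log2 scale of the mean) lay between 0.22 and 0.31. The 7 were picked as Malat1 or Neat1 peaks above the 99th percentile of their like peaks, so their range of 99.3 to 99.8 follows from that choice. Outside the run, the Neat1 exon peak chr19:5842824-5843224 had an implied SE of 0.57 against a median of 0.16 for like peaks, at the 98.8 percentile. Among the 692 peaks, 9 lay above the 99th percentile with a difference beyond 0.1, the other two being an intronic Lrp5 peak (implied SE of 0.53) and a peak near Mir6993. The spread between libraries behind these values was not read.

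**Figure D2:**
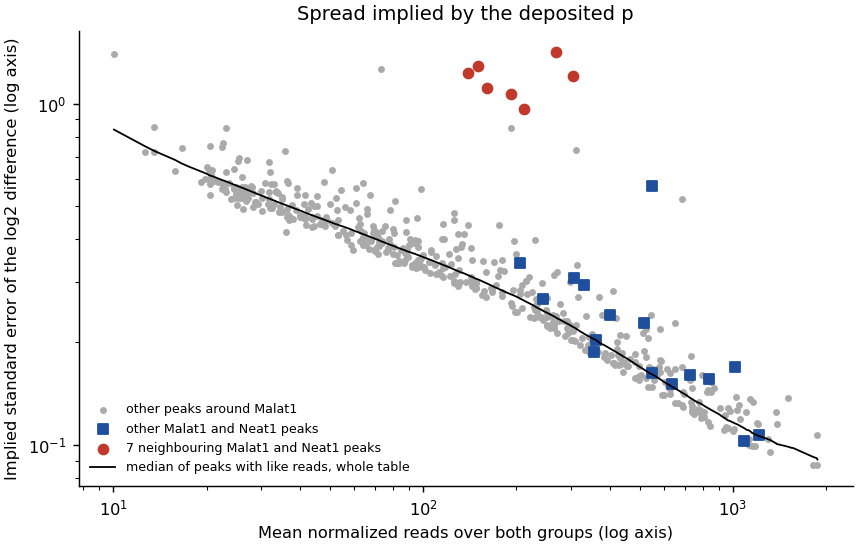
Implied standard error of the log2 difference against the mean normalized reads over both groups (both axes log), for peaks around Malat1 whose difference lies beyond 0.1 in either direction. Most peaks follow the line of the median of like peaks, while 7 neighbouring Malat1 and Neat1 peaks (red) sit at 0.97 to 1.42, above the other Malat1 and Neat1 peaks (blue squares).

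Across the whole interval 12 of the 692 peaks rose and 0 fell. These are 1.73% and 0% of the members, beside 2.23% and 0.507% of all peaks, so the share of rises was not above that of the table at large. At an unadjusted p under 0.05, 63 members (9.10%) were higher and 9 (1.30%) lower. An adjusted p under 0.01 was reached by 7 members, all higher, where 1.07% of all peaks were higher, 0.209% lower and 1.28% either. Under 0.10 there were 18 higher and 1 lower, where 3.24% of all peaks were higher, 0.778% lower and 4.02% either. The 12 peaks belong to 11 genes, and their ratios ran from 1.40-fold to 3.59-fold with a median of 1.91-fold, against a median of 2.88-fold over all peaks called higher. With all differences centred on the median of all peaks the calls became 8 higher and 1 lower, along abundance 9 and 1, and on the median of chromosome 19, a shift of 0.20, 6 higher and 4 lower. The calls at Rhod, Spindoc, Zfta, Rab3il1, Syt7 and Cd6 held under these 3 centrings, and those of the peak upstream of Malat1, the Ahnak promoter and Mir6991 ended under each of them.

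The called peak with the smallest p was assigned to Rhod, a small GTPase of endosomes, though it lies inside an intron of the neighbouring Syt12, a synaptotagmin. At chr19:4455103-4455503 it held 347 reads with mA2 dRNA and 159 with Con dRNA, a 2.18-fold rise (difference 1.12, implied SE 0.24, adjusted p of 5.66e-04 from the authors' deposited table). The other 3 Rhod peaks were also higher with mA2 dRNA and not called. Syt7, a calcium sensor of vesicle exocytosis, had 1 called peak among 11, at chr19:10363880-10364280 upstream of the gene, with 292 reads with mA2 dRNA and 119 with Con dRNA, a 2.45-fold rise. The Rab3il1 peak, in intron 1 of a gene for an exchange factor of Rab GTPases, rose 2.49-fold and held 223 reads with mA2 dRNA and 89.5 with Con dRNA. The 2.49-fold and 2.45-fold rises had implied SEs of 0.35 and 0.28 on the log2 scale.

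Cst6, a secreted inhibitor of cysteine proteases, had the called peak nearest to Malat1 on the downstream side, 457 kb from the start site in the 3′ UTR class. The peak chr19:5345452-5345852 held 1100 reads with mA2 dRNA and 775 with Con dRNA, a 1.42-fold rise with an implied SE of 0.11 on the log2 scale and an adjusted p of 0.00101 from the authors' deposited table. Its call ended with centring on chromosome 19 (adjusted p = 0.114, recomputed from the p-values the authors deposited). All 9 other peaks within 50 kb of it were higher with mA2 dRNA, and 0 of those were called.

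A short run of rises lay at Zfta, a zinc finger protein known in human ependymoma as the fusion partner of RELA. Its promoter peak, chr19:7417033-7417433, ends 192 bases before the start site. It held 333 reads with mA2 dRNA and 164 with Con dRNA, a 2.02-fold rise (implied SE 0.25, adjusted p of 0.00455 from the authors' deposited table). It covers the first 59 of the Zfta bases printed above. A peak assigned to Spindoc, which binds the histone reader Spindlin-1, lies at chr19:7397058-7397458 and held 449 reads with mA2 dRNA and 222 with Con dRNA, a 2.02-fold rise. A peak named for the start of the microRNA gene Mir6991 lies inside the Zfta gene at chr19:7423198-7423598 and rose 1.72-fold, with 299 reads with mA2 dRNA and 173 with Con dRNA. These 3 peaks span 26.1 kb between their centres. Each of the 9 peaks assigned to the 3 genes, the 3 called ones included, had the higher mean with mA2 dRNA, with a median difference of 0.50. The Mir6991 call ended under each of the 3 other centrings (adjusted p between 0.0933 and 0.197, recomputed from the p-values the authors deposited).

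Ahnak, which encodes a giant scaffold protein of the cell membrane and cytoskeleton, had rises at its start and just upstream. The start-site peak, chr19:8989069-8989469, held 721 reads with mA2 dRNA and 516 with Con dRNA, a 1.40-fold rise at an adjusted p of 0.0456 from the authors' deposited table. The peak 4.39 kb upstream of the gene held 940 reads with mA2 dRNA and 671 with Con dRNA, again a rise of 1.40-fold, its adjusted p being 0.00554 from the authors' deposited table and of 0.218 once centred on chromosome 19. All 12 peaks assigned to Ahnak were higher with mA2 dRNA, with differences from 0.12 to 1.05. Another called peak in the gene, chr19:9065930-9066330, was assigned to Scgb1a1, the secretoglobin of airway club cells, whose start lies 21.6 kb away. It held 487 reads with mA2 dRNA and 271 with Con dRNA, a 1.80-fold rise, and its call ended with centring on all peaks (adjusted p = 0.0592) and on chromosome 19 (adjusted p = 0.131), both recomputed from the p-values the authors deposited. The Scgb1a1 promoter peak itself held 27.8 reads with mA2 dRNA and 36.1 with Con dRNA and was not called. Of the 16 peaks assigned to Scgb1a1, most of which lie inside Ahnak, 11 were higher with mA2 dRNA, with differences from -0.39 to 0.85.

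The largest called ratio came from a peak at the far end of the interval with fewer reads than the median member. An intergenic peak assigned to Cd6, a receptor of T cells, at chr19:10788278-10788678, held 126 reads with mA2 dRNA and 34.9 with Con dRNA, a 3.59-fold rise with an implied SE of 0.42 on the log2 scale and an adjusted p of 0.00170 from the authors' deposited table. It lies 41.4 kb from the start of Cd6. At the bound of the interval, the last Cd6 peak inside held 50.7 reads with mA2 dRNA and 45.2 with Con dRNA, and the first one outside 39.8 with mA2 dRNA and 35.5 with Con dRNA. None of the 8 leukocyte markers examined, Cd5 and Cd6 among them, had a promoter peak in the table, while 3 of 6 markers of epithelium and lung adenocarcinoma (Krt8, Krt18 and Cdh1), 2 of 4 of fibroblasts (Col1a1 and Pdgfrb) and 1 of 3 of endothelium (Kdr) had one. Of these promoter peaks only that of Col1a1, with 555 reads with mA2 dRNA and 516 with Con dRNA, was above the median promoter peak in both groups. That median was 278 with mA2 dRNA and 265 with Con dRNA. The lung epithelial genes Nkx2-1, Sftpc and Epcam had peaks and no promoter peak. Counting every peak assigned to a marker, 5 of 6 rose at Cdh5 (endothelial cadherin), 1 of 10 at Krt8 and 1 of 9 at Cd6, the one described here. At Thy1, a fibroblast marker, 1 of 11 fell. No peak of any other marker was called, such as the 10 of Kdr, the 5 of Pecam1 or the 12 of Col1a1. Among all peaks 2.23% were called higher and 0.507% lower. The part of other cell types in the Cd6 difference was not tested.

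**Figure D3:**
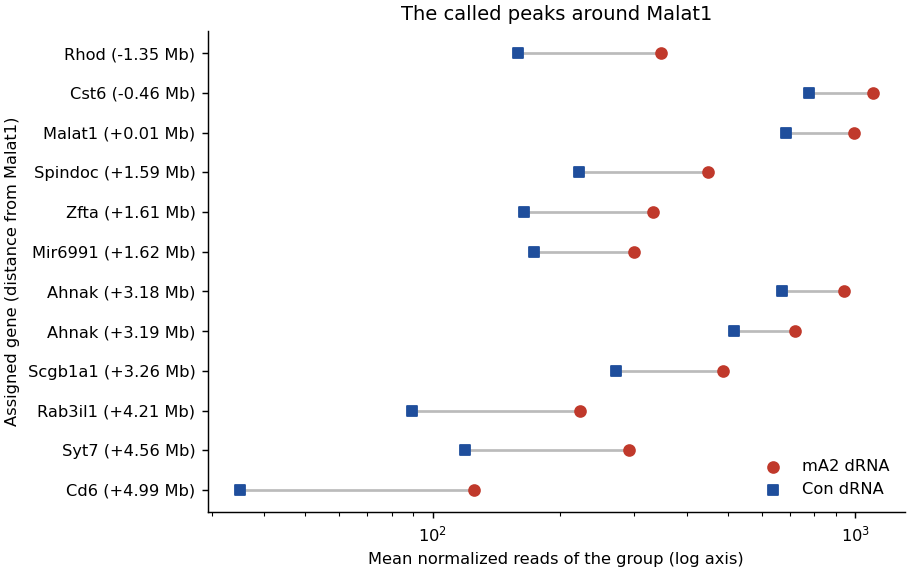
Mean normalized reads (log axis) of the 12 called peaks with mA2 dRNA (red circles) and Con dRNA (blue squares), ordered by signed distance in Mb from the Malat1 start site, with the assigned gene. The circle lies to the right of the square in all 12, from 1.40-fold at Ahnak to 3.59-fold at Cd6.

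No peak of the interval fell by the deposited test, and the peaks with the smallest p among those lower with mA2 dRNA were not called. The lowest adjusted p among them, 0.0877 from the authors' deposited table, belonged to a peak at the 3′ end of Cabp2, a calcium-binding protein, with 397 reads with mA2 dRNA and 568 with Con dRNA. This peak was called lower under each of the 3 centrings, with an adjusted p between 0.00477 and 0.0402. A peak 1.80 kb upstream of Kmt5b, a methyltransferase of histone H4 lysine 20, held 552 reads with mA2 dRNA and 751 with Con dRNA, and was called lower when centred on chromosome 19 (adjusted p = 0.00954, recomputed from the p-values the authors deposited). A peak near Rnaseh2c, a subunit of ribonuclease H2, held 56.3 reads with mA2 dRNA and 114 with Con dRNA, and was called under the same centring (adjusted p = 0.0435, recomputed likewise from the authors' p-values). The remaining lower call under it was an Incenp peak with 209 reads with mA2 dRNA and 210 with Con dRNA, where a difference near 0 leaves the implied SE undetermined and the call without meaning. The others named by the rule were peaks assigned to Myrf, Tesmin, Mir6984, Majin and Slc22a12, with ratios from 0.41 to 0.66 and adjusted p between 0.175 and 0.322 from the authors' deposited table.

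Genes of inflammatory signalling, which the title of the series points to, had 0 calls among 29 peaks of 10 genes. Beside 2.23% called higher among all peaks, 29 peaks are too few for 0 calls to set these genes apart. In 24 of them (82.8%) the mean was higher with mA2 dRNA, beside 78.3% of the members and 60.8% of all peaks. Their median difference was 0.17, beside 0.16 for the members. The unadjusted p from the authors' deposited table was under 0.05 in 1 peak (3.45%), higher with mA2 dRNA, beside 8.86% of all peaks. That peak lies 11.2 kb from the start of Rela and held 400 reads with mA2 dRNA and 288 with Con dRNA, with an unadjusted p of 0.0224 and an adjusted p of 0.279 from the authors' deposited table. The Rela promoter peak, which covers all 250 bases printed above, held 617 reads with mA2 dRNA and 548 with Con dRNA (difference 0.17, implied SE 0.16). The start-site peak of Fosl1 held 681 reads with mA2 dRNA and 544 with Con dRNA, with an unadjusted p of 0.0521 from the authors' deposited table. Map3k11, a kinase upstream of JNK, had no peak assigned to it, though a pair of peaks assigned to its neighbour Pcnx3 overlap it. The one that overlaps Map3k11 alone, chr19:5689491-5689891, was singled out after its values were seen and held 781 reads with mA2 dRNA and 603 with Con dRNA, with an unadjusted p of 0.00907 and an adjusted p of 0.164 from the authors' deposited table.

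Growth, adhesion and metastasis genes held 2 rises and 0 falls among 71 peaks of 18 genes, those at Rhod and Cst6, with a median difference of 0.25. This is 2.82% of the peaks, near the 2.23% called higher among all peaks, and the Cst6 call ended under chromosome 19 centring. Chromatin and transcription genes had 0 calls among 62 peaks of 19 genes, beside 2.23% called higher among all peaks. Their median difference was 0.11. There were 4 peaks (6.45%) higher and 2 (3.23%) lower at an unadjusted p under 0.05 from the authors' deposited table, beside 8.86% and 2.85% of all peaks. A pair of intronic peaks of the Dagla gene was assigned to Myrf, a membrane-bound transcription factor of myelination, and differed in direction. One held 355 reads with mA2 dRNA and 227 with Con dRNA, the other 131 with mA2 dRNA and 234 with Con dRNA, and neither was called.

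Metabolic and stress genes had 0 calls among 80 peaks of 17 genes, beside 2.23% called higher among all peaks. There were 12 peaks (15.0%) higher and 1 (1.25%) lower at an unadjusted p under 0.05 from the authors' deposited table, beside 8.86% and 2.85% of all peaks. Peaks of Dagla, a diacylglycerol lipase that makes an endocannabinoid, came closest to a call. The intronic one at chr19:10301174-10301574 held 188 reads with mA2 dRNA and 98.7 with Con dRNA, with an adjusted p of 0.0528 from the authors' deposited table, and 12 of the 15 Dagla peaks were higher with mA2 dRNA. An intergenic peak 33.4 kb upstream of Fads1, a fatty acid desaturase, held 83.6 reads with mA2 dRNA and 25.0 with Con dRNA, with an adjusted p of 0.0610 from the authors' deposited table. Fth1, the ferritin heavy chain, is named after its values were seen: 4 of its 8 peaks had an unadjusted p under 0.05 from the authors' deposited table, and the lowest adjusted p was 0.0940. A list of 22 genes within 300 kb of Malat1, which leaves out other genes there, had 1 rise, the peak upstream of Malat1. This was among 76 peaks of 20 genes (1.32%, beside 2.23% called higher among all peaks), with a median difference of 0.16. The 5 gene lists were written with earlier results of these data known, and these counts describe them without a test of the list.

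The 3 peaks with the most reads lay at start sites and were near 1 in ratio. The promoter of Pcx, pyruvate carboxylase, held 1967 reads with mA2 dRNA and 1764 with Con dRNA. Sf1, splicing factor 1, held 1943 with mA2 dRNA and 1805 with Con dRNA, and Stip1, a co-chaperone of Hsp90, held 1894 with mA2 dRNA and 1741 with Con dRNA. Their adjusted p lay between 0.508 and 0.877 from the authors' deposited table.

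The differences around Malat1 were mostly small, and their median was positive in every distance bin that pools both sides of the gene. Only among the 5 downstream peaks beyond 2.5 Mb was it below 0, at -0.16, with 1 of the 5 higher with mA2 dRNA. Over the 692 peaks the median difference of the group means was 0.16, whereas the median of the log2 fold in the authors' deposited table was 0.020. The median difference of the group means was 0.23 over the other 2006 peaks of chromosome 19, 0.48 over the 513 peaks from 46 to 58 Mb of that chromosome and 0.092 over all peaks. Relative to the median of all peaks the members' median was 0.068 higher, and relative to that of chromosome 19 as a whole, 0.20, it was -0.036, so the sign depended on which was taken as the zero. The mean was higher with mA2 dRNA in 78.3% of the members, in 73.2% of the other peaks of the chromosome and in 60.8% of all peaks. Summed over peaks, reads with mA2 dRNA were 1.12 times those with Con dRNA around Malat1, 1.17 times over the rest of chromosome 19, 1.38 times from 46 to 58 Mb and 1.07 times over all peaks. Peaks called higher made up 3.99% of the other peaks of the chromosome and 10.3% of the segment from 46 to 58 Mb, beside the 1.73% around Malat1. No test of these differences between sets was made, since peaks share their libraries and are not replicates.

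**Figure D4:**
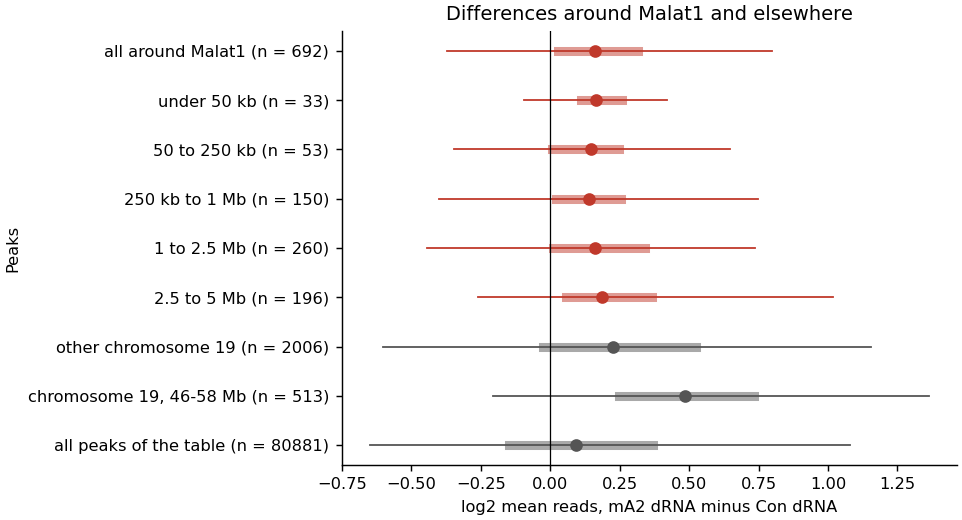
Median (point), middle 50 percent (thick bar) and 5th to 95th percentile (thin line) of the log2 difference, mA2 dRNA minus Con dRNA, for the peaks around Malat1 and their distance bins (red) and for other sets of peaks (grey). The bin medians lie between 0.14 and 0.19, above the 0.092 of all peaks and below the 0.23 of the rest of chromosome 19.

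By distance of the peak centre, the median difference was 0.16 under 50 kb (33 peaks), 0.15 from 50 to 250 kb (53), 0.14 from 250 kb to 1 Mb (150), 0.16 from 1 to 2.5 Mb (260) and 0.19 from 2.5 to 5 Mb (196). Of the 12 rises 10 lay more than 1 Mb from the guide's target. There were 2 rises among the 236 peaks within 1 Mb (0.847%), 4 among 260 from 1 to 2.5 Mb (1.54%) and 6 among 196 beyond that (3.06%), beside 2.23% of all peaks. Upstream of Malat1 lay 10 of the rises among 393 peaks (2.54%), and downstream 2 among 299 (0.669%), beside 2.23% of all peaks. Median differences upstream and downstream were 0.17 and 0.15. Of the 196 peaks beyond 2.5 Mb, 191 lay upstream, so side and distance cannot be told apart there. In windows of 0.5 Mb the median was highest, at 0.35, from 9 to 9.5 Mb, which holds the end of Ahnak and Scgb1a1, and lowest, at 0.052, from 3 to 3.5 Mb.

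**Figure D5:**
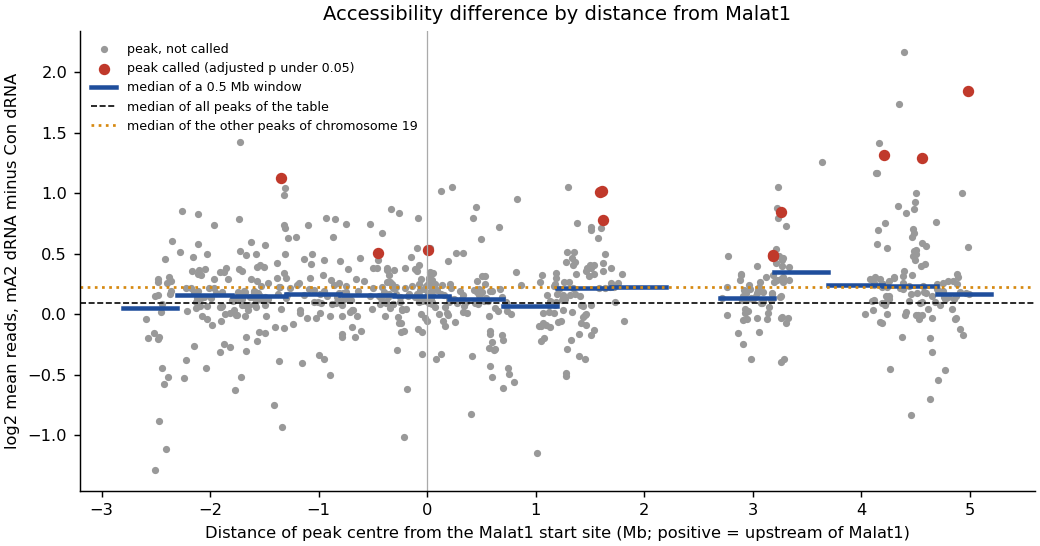
Difference in log2 mean reads, mA2 dRNA minus Con dRNA, of each of the 692 peaks by distance in Mb from the Malat1 start site (vertical line), with 12 called peaks in red, window medians in blue and the medians of all peaks (dashed) and of the other peaks of chromosome 19 (dotted). Window medians stay between 0.052 and 0.35 with no maximum at Malat1, and the blank stretches hold no peak.

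The interval is rich in promoters and in strong peaks. Promoter peaks made up 30.1% of the members and 16.8% of all peaks, and the median peak held 144 reads with mA2 dRNA and 128 with Con dRNA around Malat1, against 76.3 with mA2 dRNA and 69.2 with Con dRNA over all peaks. RefSeq places 247 protein-coding genes in it. Of the members 308, or 44.5%, held at least 186 reads over both groups, a level reached by 25% of all peaks. They included 10 of the 12 rises, or 3.25% of the 308, beside 2.29% called higher among all peaks at that level. Among the 226 members at or under the median of all peaks by reads, 0% were called and 5.31% had an unadjusted p under 0.05 from the authors' deposited table, against 2.07% and 10.5% of all 40441 peaks at that level.

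By annotation class, 3 of 208 promoter peaks rose (1.44%, against 1.20% of all promoter peaks), with a median difference of 0.14 against 0.066. Distal intergenic peaks had 5 rises among 165 (3.03%, against 2.58%) and a median of 0.18 against 0.098. Intron peaks had 3 among 196 (1.53%, against 2.47%) and a median of 0.19 against 0.12. The class and the assigned gene can differ: 340 members overlapped the RefSeq bounds of their assigned gene and 171 overlapped another gene only. Of 40 genes with 5 or more assigned peaks, 5 had the higher mean with mA2 dRNA in every assigned peak: Neat1 (14 peaks), Ahnak (12), Npas4, Gstp3 and 2010003K11Rik (5 each). None of the 40 had the lower mean in every peak, and the lowest median, -0.20 over 5 peaks, was that of Lrrc10b.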

How the data were processed

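ATAC-seq gave 4 libraries, 2 with mA2 dRNA and 2 with Con dRNA. Bowtie2, MACS2, DiffBind, ChIPseeker, deepTools, FastQC and Picard and the build mm10 are named, without versions or roles, per the submitters' processing notes. The sources used here do not say how duplicates were treated, whether read ends were shifted to the insertion site, how libraries were normalized, or if peaks were called on pooled libraries. The authors' deposited table gave, per peak, the log2 mean normalized reads in each group, a log2 fold, a p-value and an adjusted p-value. Its header says dmA12 and dLuc, which were taken as mA2 and Con because the series has a single contrast. The 4 per-library columns match no sample label and were not used, so depth per library is unknown here and replicate error rests on the deposited p.

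The differences printed are those of the group means, since the deposited fold is smaller than these. Implied SEs, centrings (medians, or a lowess curve of fraction 0.3 along mean reads) and Benjamini-Hochberg adjustments over all peaks were computed in Python 3.11.15 with scipy 1.17.1 and statsmodels 0.14.6. The code was run on simulated data whose p-values came from the same normal formula. That checks the code and cannot show that the formula suits the deposited p-values. An implied SE is unstable where a difference is near 0. No model over libraries was fitted. Other settings were a threshold of 0.01 or 0.10, a minimum of 20 reads and narrower windows. Genes are the authors' assignments, and all 232 were found in the RefSeq table (GRCm38.p6).

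The members, gene lists and tests were chosen with earlier results of these data known. Named peaks are every peak of Malat1 or Neat1 or under 50 kb, every called peak, per direction the 8 peaks of lowest p (1 per gene), the 3 peaks with the most reads and the 2 genes per list with the smallest p. Peaks outside this rule are also given, and only some of them are marked as singled out after their values were seen. 1 item is not reported here. Cell type markers were looked up among all peaks by assigned gene, and their promoter peaks were counted apart.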

Additional observations from a re-analysis of the deposited data

How the results depend on the processing

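The count of 12 calls among the 692 peaks, both directions added, stayed within 1.5 times under the 3 centrings (9, 10 and 10). The last of these includes the Incenp peak of no meaning. With a minimum of 20 reads it was 12 of 681. The directions were less stable. As deposited there were 12 higher and 0 lower, and under the centrings 8 and 1, 9 and 1, and 6 and 4. On chromosome 19 centring the rises alone thus went from 12 to 6, a larger change than 1.5 times. The count of calls was 7 at an adjusted p under 0.01 and 19 at 0.10, where 1.28% and 4.02% of all peaks were called. It was 6 of 496 peaks within 2.5 Mb (1.21%) and 2 of 236 within 1 Mb of the start site (0.847%), a lower share than the 1.73% of all members. The median difference of 0.16 was -0.036, the opposite sign, when centred on the median of chromosome 19, an alternative chosen after seeing the data; the chromosome's higher median accounts for this by construction. It stayed positive under the other alternatives run. It was 0.16 with a minimum of 20 reads, 0.15 within 2.5 Mb, 0.14 within 1 Mb, 0.14 over promoter peaks, 0.18 outside promoters, 0.15 with 1 value per gene, 0.068 centred on all peaks, 0.082 centred along abundance and 0.020 with the authors' deposited log2 fold. Of the 12 called peaks, 6 kept their call under all 3 centrings. No paired analysis was possible because the table's per-library columns carry no sample name or replicate number, and the planned fits that leave out a library or add a block were not run for that reason. What depth limits could not be shown, since depth per library was not read.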

Other observations

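Peaks were unevenly spread along the interval. The longest stretch without one was 900.2 kb, between chr19:7618006 and 8518245, where RefSeq places 6 protein-coding genes, all of the Slc22a family of organic ion transporters (Slc22a19, Slc22a26, Slc22a27, Slc22a28, Slc22a29 and Slc22a30). A stretch of 391.7 kb before Incenp, a subunit of the chromosomal passenger complex, held 0 protein-coding genes wholly inside it.

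The peak with the highest difference of the interval, 2.17, was assigned to Mir6993 and lies in Fads1. It held 120 reads with mA2 dRNA and 26.6 with Con dRNA, and was not called (unadjusted p of 0.0872 from the authors' deposited table and implied SE of 1.27, against a median of 0.40 for peaks with like reads). Beside the called Rhod peak, the 5 peaks of 2010003K11Rik, a gene outside the rule for named peaks, had a median difference of 0.50. They were led by one with 264 reads with mA2 dRNA and 128 with Con dRNA (adjusted p of 0.157 from the authors' deposited table).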
